A study of Mus musculus with 2 samples.

Results

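The region of the homeobox genes Vax1 and Emx2 on mouse chromosome 19 was described in a chromatin immunoprecipitation sequencing (ChIP-seq) study of the Polycomb-like protein PHF19. The members are the 12 deposited PHF19 peaks, of 3445 in all, that overlap the window from 59 to 60 Mb of chromosome 19 in the mm8 build. They were chosen by the positions of the deposited peaks, which were called on the same ChIP reads that are counted here. ChIP against input at these peaks is therefore a description, and no test of it is given. DNA recovered from E14 mouse embryonic stem cells with a custom rabbit polyclonal antibody against PHF19 made up 1 library (PHF19 ChIP). DNA of the same line taken without antibody made up the other (input). Both came from pluripotent cells grown on gelatin with the cytokine LIF, and the labels name no treatment or genetic change for either. With 1 library per group there is no replicate error for any value, and neither library controls for the specificity of the antibody.

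Emx2 encodes a homeodomain transcription factor of the developing cerebral cortex and the urogenital tract. Vax1 encodes a homeodomain transcription factor of the ventral forebrain and the optic stalk. Polycomb repressive complex PRC2 places repressive methyl groups on histone H3, and in embryonic stem cells it is known to occupy many genes of this kind, which are silent until differentiation. PHF19 associates with PRC2 and carries a Tudor domain that binds a methylated lysine of histone H3, and PRC2 sites are typically rich in the dinucleotide CpG.

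In the RefSeq gene table (GRCm38.p6), 3 protein-coding genes lie between Vax1 and Emx2. They are Kcnk18, a potassium channel gene, Slc18a2, the gene of the vesicular monoamine transporter, and Pdzd8. The next protein-coding gene beyond Vax1 is Shtn1, and the next beyond Emx2 is Rab11fip2, which encodes a partner of the small GTPase RAB11. That assembly differs from mm8 and gave only names and order, so no peak was assigned to a gene or promoter.

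The promoter sequences of both genes are shown for their CpG content, a feature the choice of the window did not use. Each line gives the 250 bases before the annotated start, 5′ to 3′ on the strand of the gene, with every CpG in capitals. They are RefSeq sequences of GRCm38.p6, at chr19:59458440-59458689 on the plus strand for Emx2 and at chr19:59170398-59170647 on the minus strand for Vax1.
Emx2: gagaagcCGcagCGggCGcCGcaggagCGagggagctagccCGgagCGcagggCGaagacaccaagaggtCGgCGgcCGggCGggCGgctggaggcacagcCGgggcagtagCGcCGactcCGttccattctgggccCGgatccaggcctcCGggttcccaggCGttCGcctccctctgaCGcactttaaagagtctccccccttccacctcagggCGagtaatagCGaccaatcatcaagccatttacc
Vax1: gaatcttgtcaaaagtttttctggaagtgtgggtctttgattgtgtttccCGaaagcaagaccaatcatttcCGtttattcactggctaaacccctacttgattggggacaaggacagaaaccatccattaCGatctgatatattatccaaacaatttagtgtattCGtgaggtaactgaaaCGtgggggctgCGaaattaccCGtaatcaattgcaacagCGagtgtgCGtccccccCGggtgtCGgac
The Emx2 stretch held 24 CpG dinucleotides at a GC content of 67.2%, and 11.98% of the 32851 RefSeq promoter windows held at least as many. The Vax1 stretch held 11 at a GC content of 44.8%, and 35.6% of windows held at least as many. The median window held 6 CpG at a GC content of 52.4%. The ratio of observed CpG to that expected from base composition was 0.851 for Emx2 and 0.878 for Vax1. Promoters were looked up for these genes and for their paralogues Emx1 and Vax2, and 3 of the 4 symbols matched. The Emx1 stretch, on chromosome 6, held 30 CpG. These counts describe the reference sequence, and whether PHF19 reads lay on these bases was not tested.

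The 12 peaks formed 2 clusters of 5 peaks and 2 lone peaks, when peaks with gaps of at most 10 kb were put together. Peak 1, counted along the chromosome, stood alone at chr19:59128191-59129467. Peaks 2 to 6 made a compact cluster at chr19:59218028-59225932, 7.91 kb long, of which 82.5% was covered by peaks. Peak 7 stood alone at chr19:59246926-59248055, 21.0 kb beyond that cluster. Peaks 8 to 12 made a looser cluster at chr19:59503866-59522747, 18.9 kb long and covered to 44.5%. Between peak 7 and peak 8 lay 256 kb without a deposited peak. The nearest peak below the window ended 490 kb before its border, and peak 1 lay 128 kb inside that border. Peak 12 was the last deposited peak of chromosome 19.

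**Figure D1:**
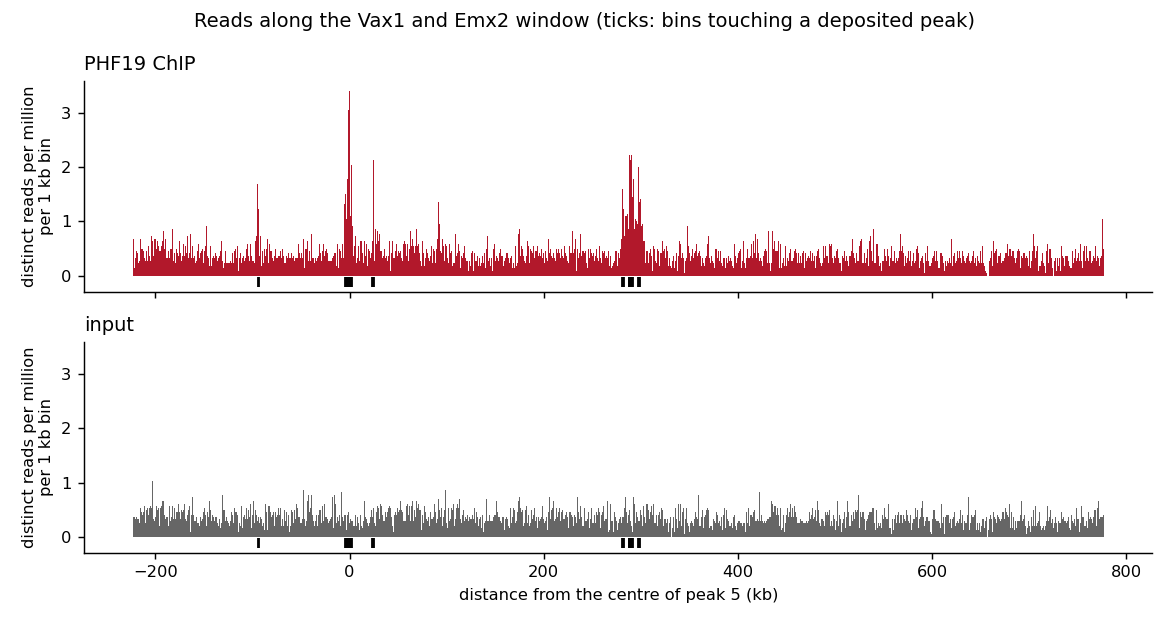
Distinct reads scaled to library size (RPM, vertical axes, same scale) in 1 kb bins against distance from the centre of peak 5 (kb), in PHF19 ChIP above and input below; black ticks mark bins touching a deposited peak. The ChIP reads rise at the 12 peaks, to at most 75 reads in a bin, while no input bin of the window held more than 25.

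PHF19 ChIP reads were several times denser than input reads in all 12 peaks. Together the peaks held 758 ChIP reads and 147 input reads. Each count was taken as a share of its library's distinct reads, and the ratio of these shares, called the fold, was 5.75 (4.82 to 6.91). Intervals are exact 95% intervals for counting error only, and amplified reads are not independent molecules. The peaks covered 17.3 kb, or 1.73% of the window. They held 8.25% of its ChIP reads (7.70 to 8.83) and 1.66% of its input reads (1.41 to 1.95).

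All 12 peaks reached a fold of 2, as did 98.6% of the whole list. All 12 also reached a fold of 4, against 40.6% of the whole list. These counts rest on the reads from which the peaks were called, so nothing is read from them beyond the description. With each peak widened by 500 bp on both sides, 12 reached a fold of 2 and 6 a fold of 4. Several gaps between neighbouring peaks were shorter than these flanks, so some widened peaks overlapped and shared reads. No share of the whole list is given for widened peaks, so 98.6% and 40.6% are not a baseline for these 2 counts.

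Peak 5, in the compact cluster, and peak 9, in the looser one, held the most ChIP reads. Peak 5, at chr19:59222134-59224280, held 148 ChIP reads against 17 input reads (fold 9.71, interval 5.87 to 17.1), the highest fold in the window. Peak 9, at chr19:59510568-59513791, held 156 ChIP reads against 25 input reads (fold 6.96, interval 4.55 to 11.1). At 2147 and 3224 bp they were also the widest peaks of the window, and a wider peak collects more reads. By ChIP reads they stood at places 386 (peak 5) and 347 (peak 9) of the 3445 peaks. By fold they stood at places 48 and 150. By the authors' score, which serves here to rank peaks, they stood at places 81 and 160. Together they held 40.1% of the ChIP reads and 28.6% of the input reads in the 12 peaks.

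The other 10 peaks were narrower, with folds of 4.06 to 7.25. Their widths ran over 753 to 1593 bp, their ChIP reads over 25 to 57, and their joint fold was 4.82 (3.89 to 6.02). Their places in the list by ChIP reads ran over 1682 to 3100, around and below its middle.

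Peak 11, at chr19:59520151-59521362, held 52 ChIP reads against 8 input reads (fold 7.25, interval 3.42 to 17.7). Peak 6, at chr19:59224738-59225932, held 48 ChIP reads against 8 input reads (fold 6.69, interval 3.14 to 16.4). These 2 had the fewest input reads of the window after peak 2, and the intervals of their folds overlapped those of all the other narrow peaks. Peak 3 had 45 ChIP reads against 10 input reads (fold 5.02, interval 2.49 to 11.2). Peak 1 had 49 ChIP reads against 11 input reads (fold 4.97, interval 2.55 to 10.6). Peak 4 had 41 ChIP reads against 10 input reads (fold 4.57, interval 2.25 to 10.2). The narrowest, peak 2, had 25 ChIP and 6 input reads, the lowest counts of the 12 peaks in both libraries, and reached 4.65-fold (1.86 to 13.9).

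The remaining 4 peaks lay just above a fold of 4. Peak 8 held 57 ChIP reads against 15 input reads (fold 4.24, interval 2.37 to 8.06). Peak 10 held 49 ChIP reads against 13 input reads (fold 4.21, interval 2.25 to 8.45). The lone peak 7 held 48 ChIP reads against 13 input reads (fold 4.12, interval 2.20 to 8.29). Peak 12 held 40 ChIP and 11 input reads and had the lowest fold of the window, 4.06 (2.04 to 8.77). The lower bounds of these 4 were all above 2 and below 4. The order of the narrow peaks is therefore not resolved by these counts.

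**Figure D2:**
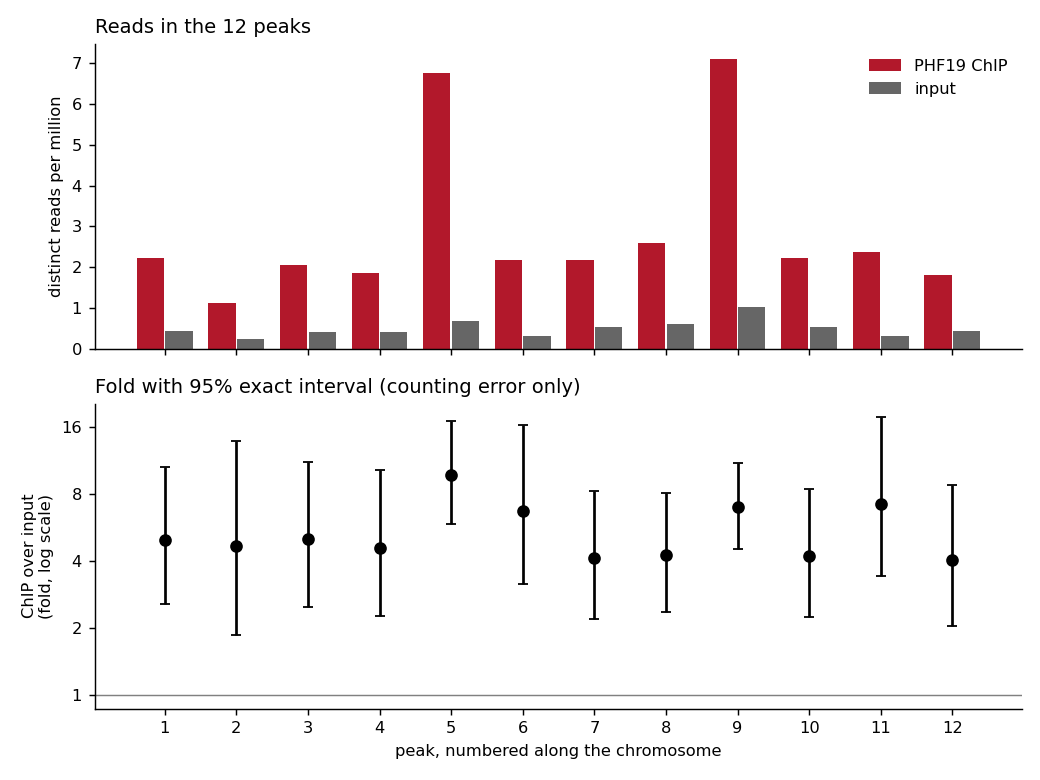
Distinct reads scaled to library size (RPM) in each of the 12 peaks (upper panel; PHF19 ChIP bars left of input bars) and ChIP over input as a fold on a log scale with its exact 95% interval (lower panel). Peaks 5 and 9 stand out in ChIP reads, every fold lies above 4, and all intervals lie above 1.

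The 2 clusters held similar numbers of reads and differed in shape. The compact cluster held 307 ChIP and 51 input reads in its peaks, a fold of 6.72 (4.98 to 9.22). The looser cluster held 354 ChIP and 72 input reads in its peaks, a fold of 5.49 (4.25 to 7.17). Their intervals overlapped, and the difference between the clusters was not tested. Peak 5 gave 48.2% of the ChIP reads in the peaks of its cluster, and peak 9 gave 44.1% in its own.

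ChIP reads also exceeded input between the peaks of a cluster. In the looser cluster, 10.5 kb between peaks held 220 ChIP reads against 112 input reads (fold 2.19, interval 1.74 to 2.78). In the compact cluster only 1.38 kb lay between peaks, with 26 ChIP reads against 13 input reads (fold 2.23, interval 1.11 to 4.73). Summed over its gaps, each cluster thus held reads above input outside the deposited borders. In the compact cluster, the gaps of 635, 275 and 457 bp had intervals that each included 1 (0.775 to 7.25, 0.320 to 24.7 and 0.695 to 8.32). Whether reads in such short gaps belong to the edges of the neighbouring peaks was not tested. Within the looser cluster, the 5.11 kb between peaks 8 and 9 had a fold of 1.92 (1.38 to 2.68), and the 4.39 kb between peaks 10 and 11 had 2.19 (1.53 to 3.16). The 806 bp between peaks 9 and 10 held 20 ChIP reads against 4 input reads (ratio 5.58, interval 1.87 to 22.4), between the folds of peaks 9 and 10. Between the compact cluster and peak 7, 219 ChIP and 157 input reads lay over 21.0 kb, a fold of 1.56 (1.26 to 1.92).

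**Figure D3:**
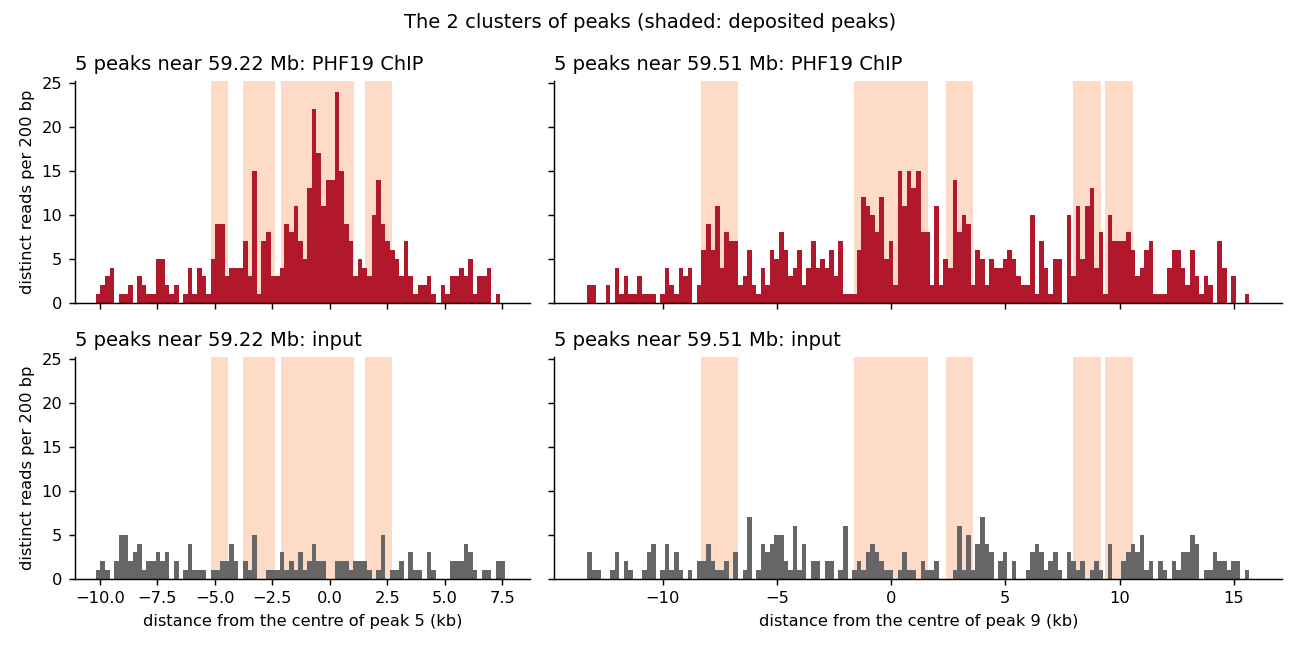
Distinct reads per 200 bp (vertical axes, same scale) against distance from the centre of peak 5 (left) and peak 9 (right), in PHF19 ChIP above and input below, with deposited peaks shaded. The compact cluster has its highest ChIP reads in peak 5. Summed over the gaps between peaks, the folds are 2.23 (left) and 2.19 (right).

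Among all groups of at least 5 peaks made with the same gap, these clusters were small in reads and high in fold. The list held 55 such groups, with a median of 506 ChIP reads (269 to 3016) and a median fold of 4.61 (2.11 to 6.72). By ChIP reads the compact cluster stood at place 52 and the looser one at place 47. Both have 5 peaks, the fewest a group in this comparison can have. Groups of 5 peaks alone held 269 to 1318 ChIP reads, and whether the number of peaks bears on these places was not tested. By fold the compact cluster stood at place 1 and the looser one at place 5. This order is loose, since 16 of the 55 groups, the cluster itself included, had folds inside the counting interval of the compact cluster, and 39 inside that of the looser one.

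Both clusters had low input density, and the compact one was also above the median group in ChIP density. ChIP density in peaks was 47.1 reads per kb in the compact cluster and 42.1 in the looser one, against a median of 45.2 over the 55 groups. Input density was 7.82 reads per kb in the compact cluster, the lowest of the 55, and 8.57 in the looser one, the third lowest, against a median of 10.7. Peak 5 had the densest ChIP reads of the window, 68.9 per kb with 7.92 input reads per kb, and peak 9 had 48.4 ChIP and 7.75 input reads per kb. Peak 2 had nearly the same input density, 7.97 reads per kb, with 33.2 ChIP reads per kb. The median peak had 39.8 ChIP reads per kb in the window and 39.3 in the other 3433 peaks of the list. The median input density was 8.29 reads per kb in the 12 peaks and 12.4 in the others. On the rest of chromosome 19, the 110 other peaks had medians of 40.1 ChIP and 12.3 input reads per kb. Those 110 peaks had a joint fold of 3.95 (3.77 to 4.13), and 48 of them reached a fold of 4.

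**Figure D4:**
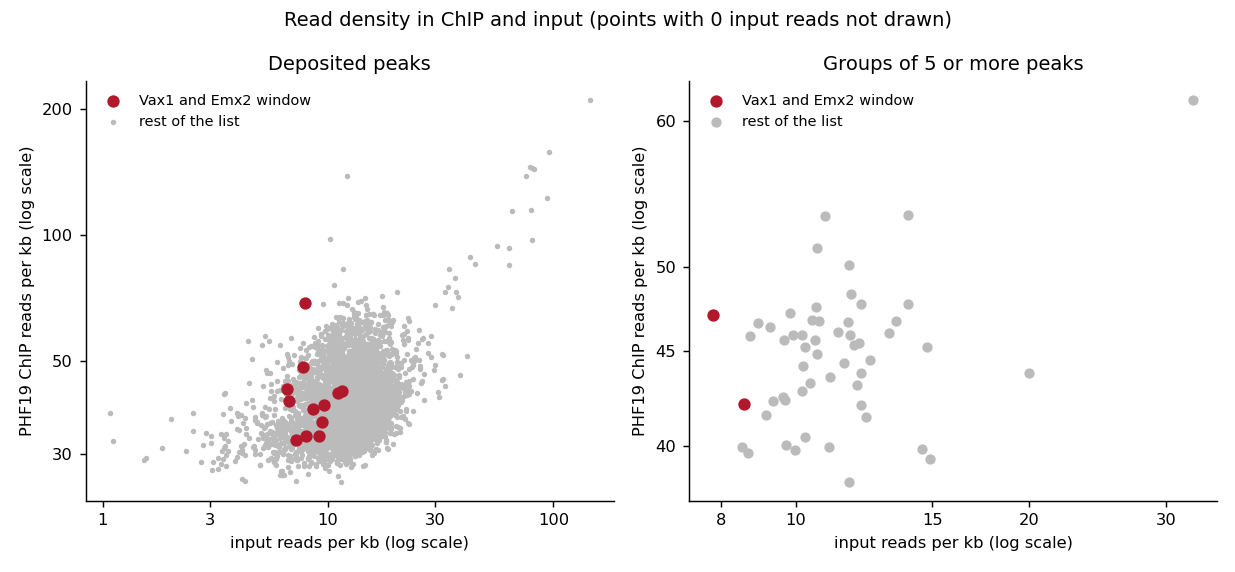
PHF19 ChIP reads per kb against input reads per kb (both log scales) for each deposited peak (left) and for each of the 55 groups of at least 5 peaks (right), with those of the Vax1 and Emx2 window in red. Peak 5 lies high in ChIP density, at 68.9 reads per kb, and the red points lie at the low side in input density, where the 2 clusters have 7.82 and 8.57 input reads per kb.

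The input of the 12 peaks was itself close to that of the chromosome around them. It was 8.48 reads per kb, or 0.942 times (0.796 to 1.11) the median 1 kb bin of chromosome 19, and 0.733 to 1.28 times it in single peaks. Bins without an input read were left out of that median. The whole window had 8.85 input reads per kb, 0.983 times that median. The counting interval of each single peak included the chromosome median. In a comparison added after these values were seen, 1337 peaks of the list had an input density within the same range relative to their own chromosome. Of these, 67.3% reached a fold of 4, with a median fold of 4.46. Input is the denominator of the fold, so a choice by input density bears directly on this share. Nothing is read from it beyond the description.

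Signal fell off within a few kb of the peaks. Within 2 kb of a peak, 1 kb bins that touched none were at 1.93-fold (1.63 to 2.29) in the window and 1.33-fold (1.32 to 1.34) over the whole genome. Some of these window bins lay between peaks of the looser cluster, so the window value shares reads with the stretch between its peaks. At 2 to 5 kb the fold was 1.23 (1.02 to 1.49) in the window and 1.10 (1.10 to 1.11) over the genome. At 5 to 10 kb it was 1.09 (0.941 to 1.27) in the window and 1.06 (1.05 to 1.06) over the genome. Beyond 50 kb it was 1.05 (1.01 to 1.09) in the window and 0.983 (0.982 to 0.984) over the genome. The stretch of 256 kb between peaks 7 and 8 had a fold of 1.06 (0.9997 to 1.12), with 2308 ChIP and 2432 input reads. The 477 kb beyond peak 12 had a fold of 1.06 (1.02 to 1.11), so ChIP and input were nearly level there.

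**Figure D5:**
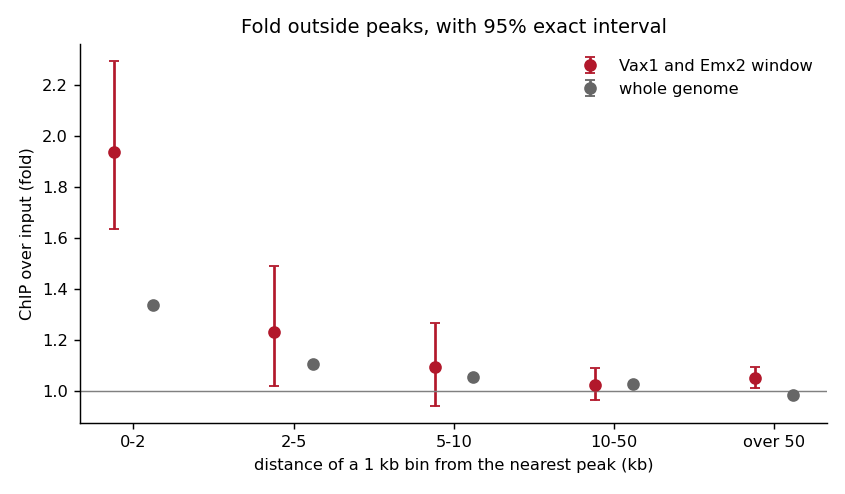
ChIP over input as a fold for 1 kb bins touching no peak, by distance from the nearest peak, with exact 95% intervals, in the Vax1 and Emx2 window (left of each pair) and over the whole genome (right of each pair, intervals smaller than the symbols). The window has 1.93 within 2 kb of a peak, bins between peaks of a cluster included, against 1.33 over the genome. Both lie near 1 beyond 10 kb.

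Fixed bins do not use the peak borders, but they count the same ChIP reads from which the peaks were called, so these shares are a description. Of the 1000 bins of 1 kb in the window, 359 held at least 10 ChIP reads, and 27 of these (7.52%) reached a fold of 4, against 1.63% of such bins over the genome. Bins of 500 bp gave 43 past that fold, and bins of 2 kb gave 7. No share over the genome is given for these bin sizes, so 1.63% is not a baseline for these counts. Of the 27, 14 touched a deposited peak, out of 24 such bins with at least 10 ChIP reads. Among the 335 such bins that touched none, 13 (3.88%) reached that fold. The genome share of 1.63% includes bins that touch peaks, so it is not a like baseline for these 335. Of all bins, those of peak 5 had the largest ChIP counts, and the bin from 59223001 held 75 ChIP reads against 6 input reads (fold 13.9, interval 6.12 to 39.2).

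Of these 13 bins outside peaks, 4 lay within 2 kb of a peak and 7 beyond 10 kb. The 13 held 10 to 25 ChIP reads and 1 to 6 input reads. The 3 with the most ChIP reads lay in or beside the looser cluster. They held 25 ChIP and 6 input reads from 59509001, 23 and 6 from 59517001, and 21 and 5 from 59524001, with folds of 4.65, 4.28 and 4.69. The next, from 59075001, held 20 ChIP reads against 5 input reads (fold 4.46, interval 1.63 to 15.2), and lay 52.2 kb from the nearest peak. The one after it, from 59249001, lay 0.945 kb beyond peak 7 and held 19 ChIP reads against 5 input reads (fold 4.24, interval 1.53 to 14.5). Of all bins outside peaks, the one with the most ChIP reads, picked out after its value was seen, began at 59314001 between the clusters. It held 30 ChIP reads against 17 input reads (fold 1.97, interval 1.05 to 3.81). In bins of 10 kb, none of the 93 free of peaks reached a fold of 2, and their folds ran over 0.764 to 1.60.

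No peak was called out of balance between the strands. Over the 12 peaks, 49.3% of ChIP reads and 45.6% of input reads lay on the plus strand, and in single peaks the ChIP share ran over 40.8 to 56.3%. An exact two-sided binomial test against the share over all peaks, 50.6%, with Benjamini-Hochberg adjustment over the 3445 peaks, called 0 of the 12 (lowest adjusted p = 1) and 1.02% of the list. At an unadjusted p under 0.05 it also found 0 of the 12. With 25 to 156 ChIP reads per peak, a slight imbalance was not detectable at this depth.

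Repeated reads had little part in the peaks. Before reads at the same position and strand were reduced to 1, peak 5 held 155 ChIP and 17 input reads, and peak 9 held 159 ChIP and 26 input reads. The joint fold of the 12 peaks with all reads kept was 5.74.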

How the data were processed

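ChIP-seq reads of 1 PHF19 ChIP and 1 input library of mouse E14 embryonic stem cells were used, grouped by antibody per the labels. Aligned reads were deposited by the authors as chromosome, start, end and strand. They were placed on mm8 by Bowtie, according to the submitters' processing notes, which give no version. Peaks came from MACS per the file headers, and the score of each peak is the authors' own. Its scale, the control and the settings are not stated. PCR amplification and gel selection of fragments preceded sequencing, per the labels' protocols.

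Every read was 42 bases long. Of 23965625 ChIP reads, 21957101 were at distinct positions, and of 26433784 input reads, 24496988 were. Reads sharing a 5′ end and strand were kept once. Each 5′ end was moved inwards by 54 bp, taken from the input's strand lag of 109 bp; the ChIP lag of 42 bp equals the read length and gave no fragment length. Fold is the ChIP share over the input share of distinct reads. An input count of 0 was replaced by 3 counts, which touched 2 peaks of the list and no member. Peaks were grouped at gaps of at most 10 kb. Called means past a fold of 2 or 4, with at least 10 ChIP reads for bins. Intervals are exact (Clopper-Pearson or Poisson) at 95%. Strand balance was the measure tested, at an adjusted p of 0.05. Scripts were tested on simulated data.

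All 12 peaks were accounted for, with values for each, and bins outside peaks were named by a fixed rule (the 5 with the most ChIP reads among those called). The members and lists were chosen with earlier results of these data known. Alternatives covered duplicates, shift, scaling, peak borders, score, gap and bins. Promoter sequences were matched by symbol. The cell type was not tested against expression markers. Software was Python 3.11.15 with scipy 1.17.1, numpy 2.4.6, matplotlib 3.10.9 and pandas 2.3.3.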

Additional observations from a re-analysis of the deposited data

How the results depend on the processing

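Of the alternatives tried, 49 values stayed within 1.5 times (counts) or within the counting interval (folds and shares), 6 moved beyond it, and none reversed direction. With peaks widened by 500 bp on each side, the joint fold became 4.46 and the fold of the looser cluster 4.13. The share of the window's ChIP reads in peaks became 9.87%, and 6 of the 12 peaks reached a fold of 4. Flanks that reach no other peak lie outside the called borders, where fewer ChIP reads lie by construction. Several gaps within the clusters were shorter than a flank, so widened peaks there overlapped and were not separate stretches. Bins past a fold of 4 numbered 43 at 500 bp and 7 at 2 kb, against 27 at 1 kb. Without the shift of reads, 11 of the 12 peaks reached a fold of 4. For widened or unshifted peaks, no share of the whole list is given beside these counts. For bins of 500 bp and 2 kb, no share over the genome is given either, so 43 and 7 have no baseline. With a gap of at most 5 kb the peaks fell into 5 groups in place of 4. The split fell between peaks 8 and 9, 5.11 kb apart, which left the looser cluster with fewer than 5 peaks. Its places among groups of at least 5 peaks therefore depend on the gap of 10 kb. Of the 12 peaks, 11 had an authors' score at or above the median of the list. Scaling by autosomal reads outside peaks raised every fold by the factor 1.01. No paired analysis was possible because each group had 1 library, and for the same reason no replicate could be left out. Depth limits single narrow peaks, whose input counts were 6 to 15.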
